A study of Mus musculus with 12 samples.

Results

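The genes that move calcium into, out of and within islet cells were taken as 45 members of the 18351 genes of the deposited table. They were chosen by gene symbol alone, with no measured value: the subunits of voltage-gated calcium channels (*Cacna1*, *Cacna2d*, *Cacnb* and *Cacng* families), the calcium pumps of the endoplasmic reticulum (SERCA, *Atp2a*), the plasma membrane (PMCA, *Atp2b*) and the Golgi (SPCA, *Atp2c*), the sodium-calcium exchangers (*Slc8a*), the release channels of calcium stores (*Ryr* and *Itpr*) and the genes of store-operated calcium entry (*Stim* and *Orai*). The symbols chosen number 48, of which *Cacng1*, *Cacng6* and *Cacng8* were not analysed here.

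In a pancreatic beta cell, glucose metabolism closes potassium channels, the membrane depolarises, and calcium entering through voltage-gated channels triggers the exocytosis of insulin granules. The pore of such a channel is an alpha1 subunit, whose surface level and gating depend on beta and alpha2delta subunits. SERCA pumps refill the endoplasmic reticulum, IP3 and ryanodine receptors release calcium from it, STIM proteins sense its depletion and open ORAI channels in the plasma membrane, and PMCA pumps and exchangers return calcium to the outside.

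Islet RNA was sequenced from *Aldh1b1*tm1lacz null mice at week 8, wild-type mice at week 8, *Aldh1b1* null mice at P1 (postnatal day 1) and wild-type mice at P1. Each of these 4 groups has 3 libraries. A week 8 library came from 1 mouse and a P1 library from the pooled islets of 3 mice, so that age and pooling cannot be told apart. The mutation is a *lacZ* knock-in carried by the whole animal, so an effect arising within islet cells and one arising elsewhere cannot be told apart. All islets were kept for 2 h in RPMI-1640 with serum before poly(A) RNA was prepared for strand-specific libraries. Values are normalized counts, the reads of a gene divided by a size factor of its library, and are given in replicate order (animals MUT218, MUT219 and MUT229 in week 8 null islets, 1 to 3 elsewhere). A gene was called when its adjusted p in the limma test was under 0.05.

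Libraries held between 21665200 and 29248285 reads on genes at week 8 and between 15212080 and 19496469 at P1. *Aldh1b1*, the targeted gene, had between 0 and 3 reads in the 6 null libraries and between 40 and 121 in the 6 wild-type libraries. The 24 acinar markers, the genes of digestive enzymes made by exocrine cells, took 11.99% to 22.7% of reads in null and 46.8% to 52.1% in wild-type islets at week 8, and 10.4% to 24.1% in null and 2.07% to 6.47% in wild-type islets at P1, with no marker at 0 in any library. The 12 beta cell markers took 11.8% to 13.6% in null and 2.62% to 5.21% in wild-type islets at week 8, and 1.26% to 3.01% in null and 4.62% to 7.51% in wild-type islets at P1. The 8 pan-endocrine markers took 1.55% to 1.76% in null and 0.428% to 0.778% in wild-type islets at week 8, and 0.533% to 0.971% in null and 1.30% to 1.48% in wild-type islets at P1. In such bulk samples fewer cells of a type and less RNA per cell cannot be told apart. Replicate 1 of the P1 wild-type islets stood apart. Its deviations from the P1 mean had a Spearman correlation of -0.55 with transcript length across genes, against 0.12 to 0.33 in the other 5 P1 libraries. For deviations from the week 8 mean the correlation was 0.10 to 0.15 in null and -0.21 to -0.04 in wild-type libraries. At week 8 the trend with length thus went with genotype. The members are long, with a median of 6036 bases against 3213 bases over all genes.

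Under the deposited scaling, null islets at week 8 had more RNA for L-type pores, some beta and alpha2delta subunits, SERCA pumps and an exchanger. They had less for an IP3 receptor, an ORAI pore and 3 other members. Of the 44 members tested, 11 were higher in null islets (25%). Among them were the L-type pores *Cacna1c* and *Cacna1d*, the subunits *Cacnb2*, *Cacnb3* and *Cacna2d1*, both SERCA pumps tested and the exchanger *Slc8a1*. A further 5 (11.4%) were lower, namely *Atp2c2*, *Orai2*, *Cacng7*, *Itpr2* and *Atp2b3*. Over all 18126 genes tested, 28.1% were called, 12.3% higher and 15.8% lower. The median log2 difference was 0.20 over the members and 0.02 over all genes. *Atp2a1*, at 0 to 2.17 normalized counts at week 8, was left out of that test by the filter on low values.

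**Figure D1:**
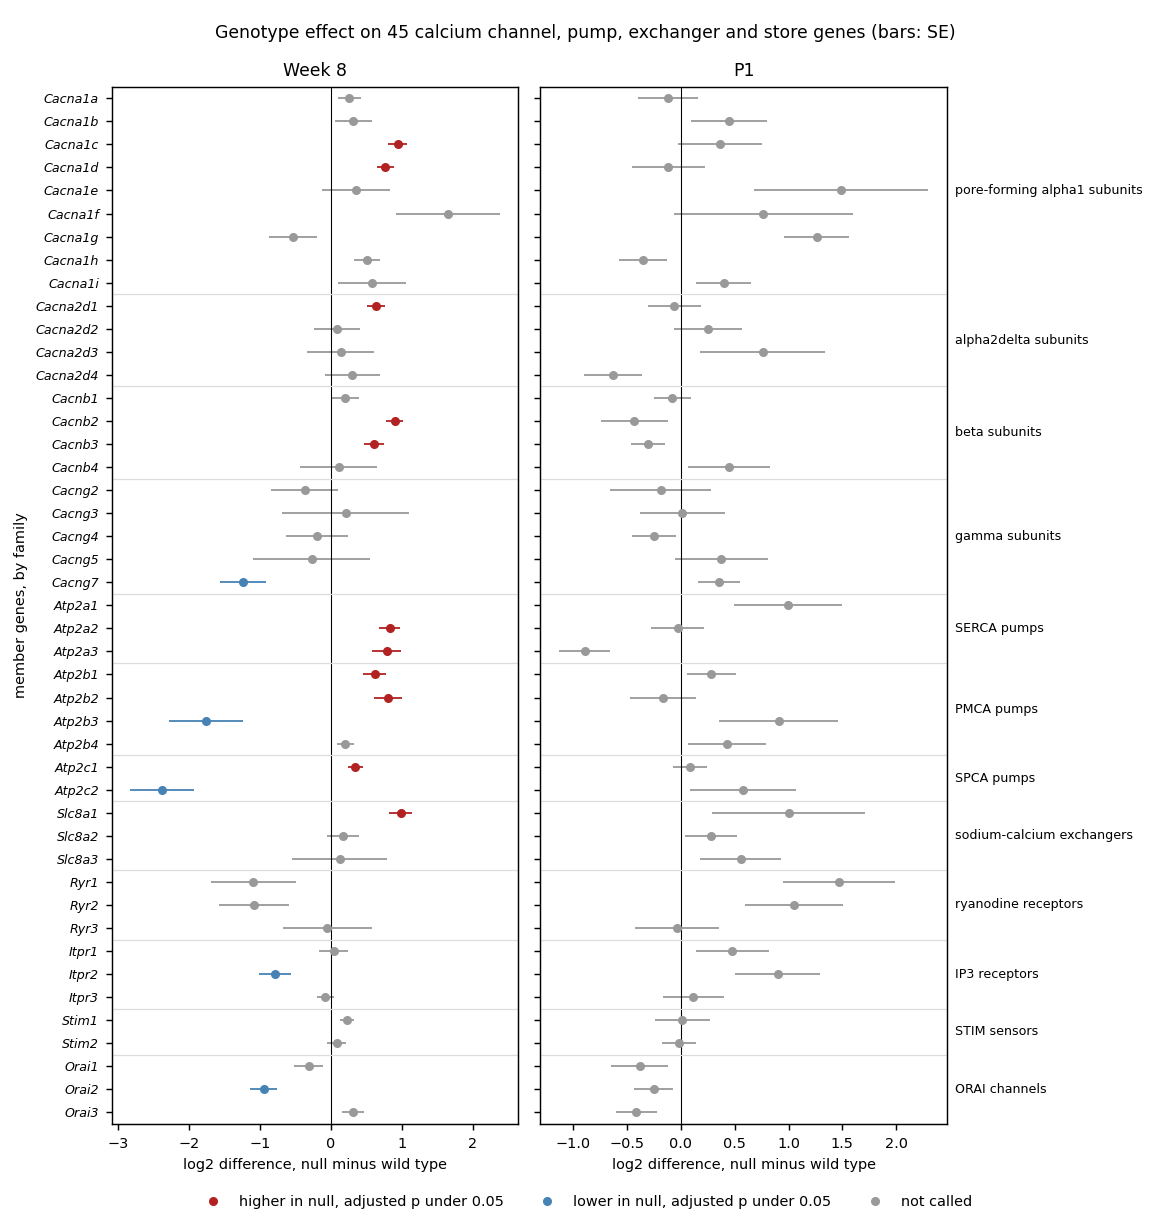
The log2 difference between null and wild-type islets (horizontal axis, bars are standard errors, 3 libraries a genotype) is drawn for each member, at week 8 on the left and at P1 on the right, ordered by family. Under the deposited scaling the 11 red points at week 8 lie between 0.35 and 0.99 and the 5 blue points between -2.38 and -0.79, and at P1 no member was called.

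Under the deposited scaling the L-type pores were higher in null islets at week 8. The study itself used these samples to draw *Cacna1c*, *Cacna1d* and *Cacnb2*, so their direction here is not independent evidence. Scaled to pan-endocrine genes, *Cacna1d* was at 0.06 (limma adjusted p = 0.864) and *Cacna1c* at 0.24 (adjusted p = 0.472), and neither was called. *Cacna1d*, which encodes the CaV1.3 pore of beta cells, had 1981, 2225 and 2272 normalized counts in null and 1239, 1406 and 1166 in wild-type libraries, a log2 difference of 0.77 ± 0.12 (SE; limma adjusted p = 0.00157). The lowest null library lay above the highest wild-type one. *Cacna1c*, which encodes CaV1.2, had 880.3, 1035 and 943 in null and 546, 517 and 425 in wild-type libraries, a difference of 0.95 ± 0.14 (adjusted p = 0.00116), again with no overlap. Per kb of transcript *Cacna1d* took 67.9% ± 1.19 of the summed L-type level in null and 70.6% ± 2.15 in wild-type islets (SD, n = 3). *Cacna1f*, the retinal L-type pore, was at 8.06, 6.66 and 11.6 in null and 0, 4.45 and 4.14 in wild-type libraries and was not called.

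The other pores were not called at week 8. *Cacna1a*, the P/Q-type pore and the most abundant of its group, had 1081, 1496 and 1077 normalized counts in null and 939.6, 1161 and 924 in wild-type libraries, which overlapped. *Cacna1h*, a T-type pore that opens near the resting potential, had 212, 207 and 224 in null and 166, 121 and 167 in wild-type libraries. These did not overlap, and its log2 difference of 0.51 ± 0.18 had an adjusted p of 0.0642. *Cacna1b* (N-type), *Cacna1g* and *Cacna1i* (T-type) and *Cacna1e* (R-type) ranged between -0.53 and 0.58 on the log2 scale, with adjusted p from 0.279 to 0.625. *Cacna1e*, the R-type pore described in mouse beta cells, had only 10.1, 6.66 and 13.7 normalized counts in null and 5.89, 10.0 and 6.91 in wild-type islets.

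Of the 8 beta and alpha2delta subunits 3 rose under the deposited scaling, and *Cacnb3* and *Cacna2d1* turned below 0 when libraries were scaled to pan-endocrine genes. *Cacnb2*, which carries pores to the membrane and slows their inactivation, had 700.3, 781 and 717 normalized counts in null and 396, 406 and 370.1 in wild-type libraries (log2 difference 0.90 ± 0.12, adjusted p = 0.000875), the smallest adjusted p among the members. *Cacnb3*, the most abundant beta subunit, had 1254, 887 and 979.6 in null and 677, 677 and 669.8 in wild-type libraries (0.61 ± 0.14, adjusted p = 0.0107). Neither overlapped, although null replicate MUT218 of *Cacnb3* stood well above the other null libraries. *Cacna2d1*, the alpha2delta subunit that brings channels to the surface, had 1789, 1960.4 and 1856 in null and 1149, 1425 and 1061 in wild-type libraries (0.64 ± 0.13, adjusted p = 0.0059), with every null library above every wild-type one. *Cacnb1*, *Cacnb4* and *Cacna2d2* to *Cacna2d4* differed by 0.09 to 0.31 and were not called.

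Among the gamma subunits, which also regulate glutamate receptors, *Cacng7* fell. It had 26.2, 34.2 and 23.9 normalized counts in null and 86.9, 47.9 and 71.8 in wild-type libraries (-1.24 ± 0.32, adjusted p = 0.0175). The groups did not overlap, and wild-type replicate 2 came nearest to the null values. *Cacng4*, the most abundant gamma subunit by normalized count at this age, varied more within a genotype than between them, at 58.4, 136 and 60.0 in null and 70.7, 169 and 59.4 in wild-type libraries. *Cacng2*, *Cacng3* and *Cacng5* were at 0 to 11.05 normalized counts at week 8.

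SERCA pumps gave the members' most abundant RNA per kb, and both that were tested were higher in null islets under the deposited scaling. Scaled to pan-endocrine genes, *Atp2a2* was at 0.12 (limma adjusted p = 0.764) and *Atp2a3* at 0.07 (adjusted p = 0.834), and neither was called. *Atp2a2*, the widely expressed SERCA2, had 26807, 23213 and 26262 normalized counts in null and 13931, 15809 and 13262 in wild-type libraries (0.83 ± 0.14, adjusted p = 0.00276). *Atp2a3*, the SERCA3 of beta cells and blood cells, had 9024, 10343 and 13658 in null and 5362, 8562 and 5428 in wild-type libraries (0.78 ± 0.21, adjusted p = 0.0203). Neither gene overlapped between genotypes, though the highest wild-type library of *Atp2a3*, replicate 2, lay close under the lowest null one. Per kb of transcript the SERCA genes together made up 63.4% ± 2.71 of the members' summed level in null and 55.0% ± 3.16 in wild-type islets (SD, n = 3), and *Atp2a3* made up 31.6% ± 4.69 of SERCA in null and 32.2% ± 4.03 in wild-type islets.

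Plasma membrane and Golgi pumps divided by isoform. *Atp2b1*, the widely expressed PMCA1, had 3715, 2928 and 3516 normalized counts in null and 2659.8, 1772 and 2247 in wild-type libraries (0.62 ± 0.16, adjusted p = 0.0176). *Atp2b2*, the fast PMCA2 best known from hair cells and neurons, had 500.2, 799 and 582 in null and 296, 433 and 336 in wild-type libraries (0.81 ± 0.20, adjusted p = 0.0144). Both were higher in every null than in every wild-type library, and *Atp2b1* was at -0.093 when scaled to pan-endocrine genes. *Atp2b3*, PMCA3, moved the other way at a low level, with 6.04, 1.90 and 7.23 in null and 20.6, 17.8 and 15.2 in wild-type libraries (-1.76 ± 0.52, adjusted p = 0.0305). *Atp2b4*, PMCA4, was not called (0.21 ± 0.12).

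The Golgi pump *Atp2c1*, which loads calcium and manganese into the secretory route, had 2887, 2785 and 2613 normalized counts in null and 2119, 2397 and 2009 in wild-type libraries (0.35 ± 0.11, adjusted p = 0.0426), and was at -0.36 when scaled to pan-endocrine genes. Its relative *Atp2c2*, found in secretory epithelia, had 26.2, 96.0 and 26.0 in null and 171, 210.4 and 273 in wild-type libraries (-2.38 ± 0.45, adjusted p = 0.00434). Null replicate MUT219, the highest of its group for *Atp2c2*, was also the week 8 null library with the highest acinar share, 22.7% against 11.99% and 13.0% in the others. With the acinar share as a covariate the difference of *Atp2c2* was -0.44 (limma adjusted p = 0.766). That share did not overlap between genotypes at week 8, so the fit tells genotype and acinar share apart poorly. The cause was not tested.

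Of the exchangers, *Slc8a1* (NCX1), which trades calcium for sodium across the plasma membrane, had 396, 411 and 331 normalized counts in null and 191, 212 and 169.9 in wild-type libraries (0.99 ± 0.16, adjusted p = 0.00204), without overlap. *Slc8a2* and *Slc8a3* differed by 0.18 and 0.13 and were not called.

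No release or store-operated channel was called higher at week 8. *Itpr2*, the IP3 receptor common in exocrine and liver cells, had 368, 553 and 289 normalized counts in null and 642, 599 and 791 in wild-type libraries (-0.79 ± 0.22, adjusted p = 0.0248), where null replicate MUT219 came nearest to the wild-type values. *Itpr1* had 1519, 2635 and 1499 in null and 1735, 1959 and 1629.7 in wild-type libraries, an overlap in which null replicate MUT219 was the highest of all 6, and *Itpr3* differed by -0.08 ± 0.11. *Orai2*, a pore of store-operated entry, had 150.4, 192 and 156 in null and 275, 302 and 392 in wild-type libraries (-0.95 ± 0.19, adjusted p = 0.00498). Both *Itpr2* and *Orai2* were separated between genotypes. *Orai3* made up 66.6% ± 2.97 of the ORAI level per kb in null and 50.9% ± 4.10 in wild-type islets (SD, n = 3), and its own difference of 0.31 ± 0.15 was not called (adjusted p = 0.161). *Stim1*, the store sensor, had 1796, 1746 and 1743 in null and 1469.8, 1558 and 1476 in wild-type libraries, separated yet not called (adjusted p = 0.113). *Orai1* (-0.31 ± 0.20) and *Stim2* (0.08 ± 0.13) were not called. The ryanodine receptors were at 2.01 to 20.7 normalized counts in each week 8 library and were not called.

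**Figure D2:**
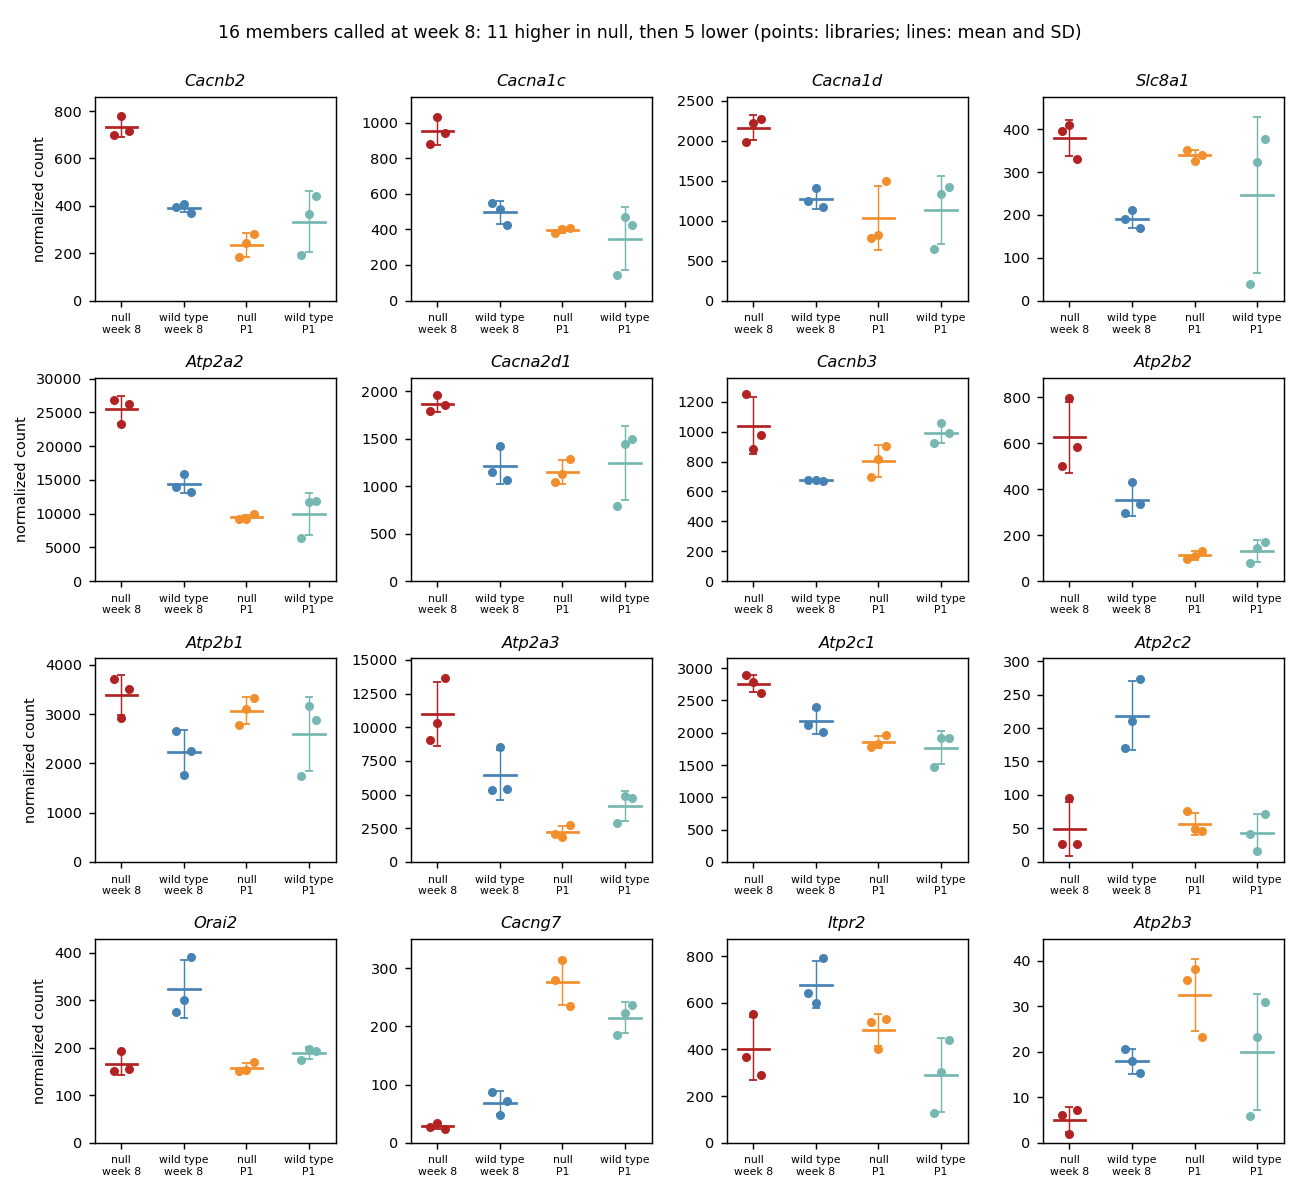
Normalized counts (vertical axis, from 0) of the 16 members called at week 8 are drawn for each library in null and wild-type islets at week 8 and then at P1, where points are libraries, long lines group means and error bars SD (n = 3). *Cacna1d* at week 8 sits between 1981 and 2272 in null islets, above the wild-type libraries at 1166 to 1406, whereas *Atp2c2* sits at 26.0 to 96.0 in null and 171 to 273 in wild-type islets.

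Values of the genotypes at week 8 did not overlap for 15 members that were above wild type in null islets and for 8 that were below, against 21.5% and 22.1% of all genes. Of the 16 members called, 9 were called whichever of the 6 libraries was left out: *Cacna1c*, *Cacna1d*, *Cacnb2*, *Cacnb3*, *Cacna2d1*, *Slc8a1*, *Atp2a2*, *Atp2c2* and *Orai2*. Without wild-type replicate 3 those 9 were the members called. When all 12 libraries were fitted together 12 of the 16 were called, and *Cacna1d* (adjusted p = 0.0583), *Slc8a1* (0.237), *Atp2c1* (0.0793) and *Itpr2* (0.122) were not. *Atp2b2* was lost only without that library (adjusted p = 0.0612), and the highest adjusted p with 1 library left out was 0.0965 for *Atp2a3*, 0.0725 for *Atp2b1*, 0.168 for *Atp2c1*, 0.0705 for *Cacng7*, 0.108 for *Itpr2* and 0.082 for *Atp2b3*.

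The calls of higher members depended on what the libraries were scaled to. The 8 pan-endocrine genes were *Chga*, *Chgb*, *Scg2*, *Scg3*, *Scg5*, *Cpe*, *Pcsk1n* and *Pcsk2*. Scaling to them takes their RNA within endocrine cells as unaffected by genotype, which was not tested. Of the 8 pan-endocrine markers 6 were called higher in null islets (median log2 difference 0.78), as were 10 of 12 beta cell markers. Called lower were 24 of 24 acinar and 12 of 12 mesenchymal and smooth muscle markers. Duct markers were lower for 5 of 7, with 1 higher, and endothelial markers for 5 of 9. When each library was scaled to the 8 pan-endocrine genes, the median of all genes moved to -0.66 and that of the members to -0.48, so that the members' median lay 0.18 above that of all genes on both scales. No member was called higher, against 0.205% of all genes, and 9 were called lower, against 36.2%: *Atp2c2* at -3.06, *Atp2b3* at -2.29, *Cacng7* at -1.92, *Orai2* at -1.65, *Ryr2* at -1.59, *Itpr2* at -1.50, *Cacna1g* at -1.22, *Orai1* at -1.02 and *Itpr3* at -0.79. The 5 members lower under the deposited scaling were among these 9. Of the members called higher under the deposited scaling, *Cacna1c* and *Slc8a1* stood highest on that scale, at 0.24 and 0.28 (limma adjusted p of 0.472 and 0.411). There *Atp2a2*, *Atp2a3* and *Cacna1d* were at 0.12, 0.07 and 0.06. With the acinar share as a covariate in a limma fit of all 12 libraries, 0 members were called (7 at an unadjusted p under 0.05, smallest adjusted p 0.18), and 1.36% of all genes were called. The 16 members called under the deposited scaling kept the sign of their difference in that fit, with *Cacnb2* at 0.95 ± 0.42 and *Orai2* at -0.88 ± 0.30. Since the acinar share did not overlap between genotypes at either age, that fit tells genotype and acinar share apart poorly.

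**Figure D3:**
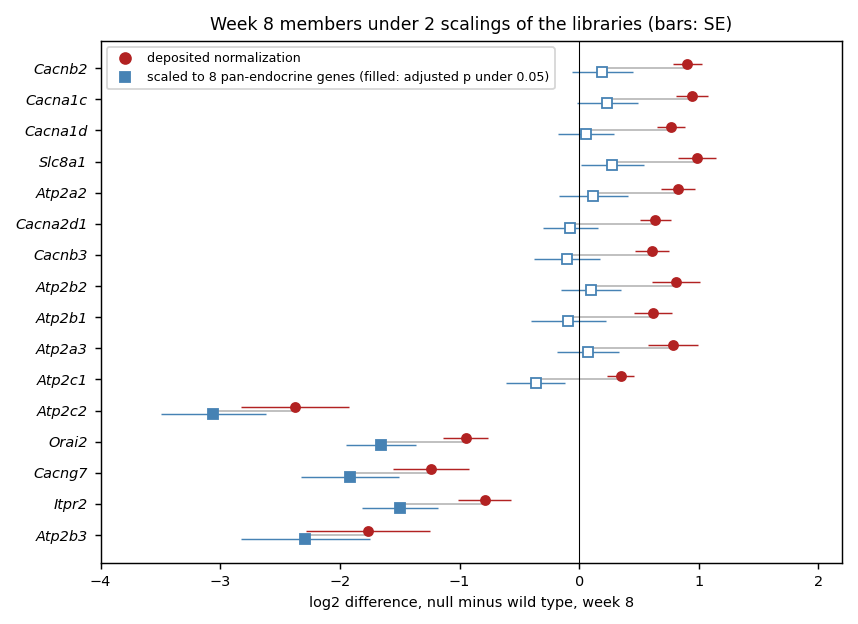
The log2 difference between null and wild-type islets at week 8 (horizontal axis, bars are SE, 3 libraries a genotype) is drawn for the 16 called members under the deposited normalization (red circles) and after scaling to the 8 pan-endocrine genes (blue squares, filled where the adjusted p was under 0.05). The 11 upper members lie at 0.35 to 0.99 in red and at -0.36 to 0.28 in blue, and the 5 lower members are below 0 on both.

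The 250 bases before the annotated start, from RefSeq (build GRCm38.p6), were found for 35 of the 45 members and for 13 of the 16 called at week 8. They are shown for the members with a single annotated start and the smallest adjusted p in each direction: *Slc8a1* and *Cacna2d1*, higher in null islets, and *Orai2* and *Cacng7*, lower. *Slc8a1* lies on the minus strand of chr17:81738388-81738637, *Cacna2d1* on the plus strand of chr5:15934441-15934690, *Orai2* on the minus strand of chr5:136170657-136170906 and *Cacng7* on the plus strand of chr7:3332575-3332824. Each is written 5′ to 3′ along its gene. Capitals mark a match on either strand to any of 4 motifs, overlapping matches included. The GC box was searched as GGGCGG. The CCAAT box was searched by those 5 letters. For the TATA box the letters were TATAAA, and for the palindromic E-box they were CACGTG.
Slc8a1: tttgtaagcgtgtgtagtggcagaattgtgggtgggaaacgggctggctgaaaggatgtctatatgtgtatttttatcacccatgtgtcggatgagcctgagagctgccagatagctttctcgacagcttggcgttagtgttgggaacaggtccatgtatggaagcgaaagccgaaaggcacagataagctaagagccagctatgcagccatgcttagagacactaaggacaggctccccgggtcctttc
Cacna2d1: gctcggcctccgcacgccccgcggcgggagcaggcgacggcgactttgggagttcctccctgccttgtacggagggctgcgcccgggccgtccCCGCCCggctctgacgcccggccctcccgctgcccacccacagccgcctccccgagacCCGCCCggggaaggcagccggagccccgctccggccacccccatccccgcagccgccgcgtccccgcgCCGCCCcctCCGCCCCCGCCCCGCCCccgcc
Orai2: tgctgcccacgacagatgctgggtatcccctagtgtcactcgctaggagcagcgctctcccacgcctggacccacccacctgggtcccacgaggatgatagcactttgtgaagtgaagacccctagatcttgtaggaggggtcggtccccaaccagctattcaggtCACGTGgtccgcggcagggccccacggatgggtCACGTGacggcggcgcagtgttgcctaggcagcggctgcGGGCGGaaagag
Cacng7: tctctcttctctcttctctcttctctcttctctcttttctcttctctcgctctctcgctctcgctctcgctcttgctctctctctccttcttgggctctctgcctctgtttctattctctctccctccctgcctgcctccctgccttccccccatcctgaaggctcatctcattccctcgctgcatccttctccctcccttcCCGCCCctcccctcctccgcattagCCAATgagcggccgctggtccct
None of the 4 motifs was in the *Slc8a1* window, whereas that of *Cacna2d1* held 6 GC boxes. The *Orai2* window held 2 palindromic E-boxes and 1 GC box, and that of *Cacng7* 1 CCAAT and 1 GC box. The GC box was in 58.3% of the 48 windows of members and in 32.7% of all 32851 windows. The CCAAT box was in 33.3% of member windows and 33.8% of all, the TATA box in 2.08% of member windows and 12.4% of all, and the palindromic E-box in 4.17% of member windows and 6.02% of all. A match is a description of these letters and not a bound site.

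At P1 none of the 45 members was called (6 at an unadjusted limma p under 0.05, 4 higher and 2 lower in null islets). The share of all genes under that unadjusted p was not counted, so the 6 cannot be read as an excess. Of all 18235 genes tested 0.0658% were called, 0.0548% higher and 0.011% lower. DESeq2 on recovered reads called *Cacna1g* higher and *Atp2a3* lower, and edgeR called 0. *Cacna1g*, a T-type pore, had 380.3, 255 and 259 normalized counts in null and 78.1, 136 and 168 in wild-type libraries at P1, a log2 difference of 1.26 ± 0.30 (limma adjusted p = 0.139). *Atp2a3* had 2088, 1816 and 2738 in null and 2881, 4908 and 4725 in wild-type libraries (-0.89 ± 0.24, adjusted p = 0.162). All null libraries lay above the wild-type ones for *Cacna1g* and below them for *Atp2a3*, and the same held above for *Atp2a1* and *Ryr1* and below for *Cacna2d4*, *Cacnb3*, *Orai2* and *Orai3*. These 3 members above and 5 below compare with 12.7% and 10.9% of all genes. *Atp2a3* made up 19.97% ± 2.67 of the SERCA level per kb in null and 31.2% ± 1.30 in wild-type islets (SD, n = 3).

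Replicate 1 of the P1 wild-type islets was the lowest of the 6 P1 libraries for 30 of the 45 members. *Slc8a1* had 352, 327 and 340.0 normalized counts in null and 38.7, 324 and 378 in wild-type libraries, and *Cacna1c* had 379, 402 and 408 in null and 144, 469.5 and 428 in wild-type libraries. In both genes replicate 1 was far under the other 5 libraries. Among members with a P1 mean of at least 100, the 15 with transcripts over 6000 bases stood in replicate 1 at a median of 47.2% of the mean of the other wild-type libraries (range 32.0% to 76.6%), and the 13 shorter ones at 80.6% (11.02% to 177%). With all 6 libraries 27 members were above 0 and 18 below (median 0.25, against 0.03 over all genes). Without replicate 1 these counts were 18 and 27 (median -0.05), and *Atp2a3* alone was called, lower in null islets. Scaling to the pan-endocrine genes called 23 members higher and 0 lower at P1, against 40.7% and 0.148% of all genes, where the median of all genes moved to 0.79 and that of the members to 1.01.

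The genotype effect differed between week 8 and P1 for 11 members (4 higher at week 8 relative to P1 and 7 lower), against 21.8% of all genes (8.2% higher and 13.6% lower). *Atp2a3* had the smallest adjusted p, with an effect of 0.78 at week 8 and -0.89 at P1, a difference of 1.68 ± 0.35 (limma adjusted p = 0.00413). *Cacnb2* (1.34 ± 0.36, adjusted p = 0.0163) and *Cacnb3* (0.91 ± 0.21, adjusted p = 0.00775) were likewise above 0 at week 8 and below 0 at P1 under the deposited scaling, and their interactions and that of *Orai3* turned below 0 when scaled to pan-endocrine genes. *Cacnb2* had 182, 244 and 281 normalized counts in null and 190.4, 366 and 442 in wild-type islets at P1, and *Cacnb3* had 694, 815 and 907 in null and 924, 1058 and 991 in wild-type islets at P1. *Orai3* had 473, 376 and 373 in null and 311, 368 and 302 in wild-type islets at week 8, and 261, 251 and 274 in null and 441, 316 and 307 in wild-type islets at P1 (0.73 ± 0.25, adjusted p = 0.049). At week 8 every null library was above every wild-type one and at P1 every null library was below.

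The 7 members with a lower effect at week 8 included the release channels *Ryr1*, *Ryr2* and *Itpr2* and the T-type pore *Cacna1g*. *Ryr2*, the ryanodine receptor of heart and brain, had 2.69, 3.80 and 3.62 normalized counts in null and 8.84, 8.91 and 6.91 in wild-type islets at week 8, and 62.4, 87.7 and 68.0 in null and 16.1, 37.8 and 64.7 in wild-type islets at P1 (-2.13 ± 0.62, adjusted p = 0.0247). *Ryr1*, the muscle form, had 2.01, 2.85 and 2.89 in null and 4.42, 4.45 and 13.8 in wild-type islets at week 8, and 20.8, 20.7 and 12.1 in null and 2.19, 9.10 and 8.09 in wild-type islets at P1 (-2.56 ± 0.78, adjusted p = 0.0305). Null values of *Ryr2* lay under wild type at week 8, and overlapped it at P1. The week 8 values rest on 3 to 10 reads a library for *Ryr1* and 4 to 8 for *Ryr2*. Without replicate 1 of the P1 wild-type islets *Ryr1* did not pass the interaction test, and the rest of these 7 members did. *Cacna1g* had 45.0, 45.6 and 23.2 in null and 60.4, 42.3 and 58.0 in wild-type islets at week 8, which overlapped, whereas its P1 values did not (interaction -1.80 ± 0.47, adjusted p = 0.014). *Atp2c2* (-2.95 ± 0.75), *Cacng7* (-1.59 ± 0.36), *Itpr2* (-1.69 ± 0.50) and *Atp2b3* (-2.67 ± 0.78) completed the group, with adjusted p from 0.00615 to 0.0265. At P1 these 4 had 56.8 ± 16.1, 276 ± 39.9, 483 ± 69.3 and 32.3 ± 7.92 normalized counts in null islets and 43.5 ± 28.0, 215 ± 26.8, 291 ± 158 and 19.9 ± 12.8 in wild-type islets (SD, n = 3).

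*Atp2a3*, *Cacnb3*, *Cacng7*, *Atp2c2* and *Cacna1g* passed the interaction test whichever of the 12 libraries was left out. The number of members passing was 6 without replicate 1 and 7 without replicate 2 of the P1 null islets, 7 without week 8 null replicate MUT218 and 18 without replicate 1 of the P1 wild-type islets. *Orai3* passed in 2 of these 12 fits. Scaled to the pan-endocrine genes, 24 members were lower and 0 higher, against 66.4% and 0.131% of all genes, with the median of all genes at -1.44.

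Levels per kb of transcript, which allow genes to be compared, ordered the members alike in both week 8 groups for the first 6: *Atp2a2*, *Atp2a3*, *Stim1*, *Atp2b1*, *Atp2c1* and *Cacnb3*. *Atp2a2* was at 4481 ± 341 normalized counts per kb in null and 2526 ± 233 in wild-type islets (SD, n = 3). *Atp2a3* was at 2085 ± 452 in null and 1221 ± 346 in wild-type islets. *Stim1* followed at 489.8 ± 8.29 in null and 417 ± 13.7 in wild-type islets. *Atp2b1* came next at 474 ± 57.2 in null and 312 ± 62.2 in wild-type islets. In null islets these last 2 did not differ beyond their spread. The most abundant pore was *Cacna1d*, seventh in null islets at 231 ± 16.7 and twelfth in wild-type islets at 136 ± 13.2, and its neighbour in null islets, *Cacna2d1* at 223 ± 10.3, was within its spread.

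**Figure D4:**
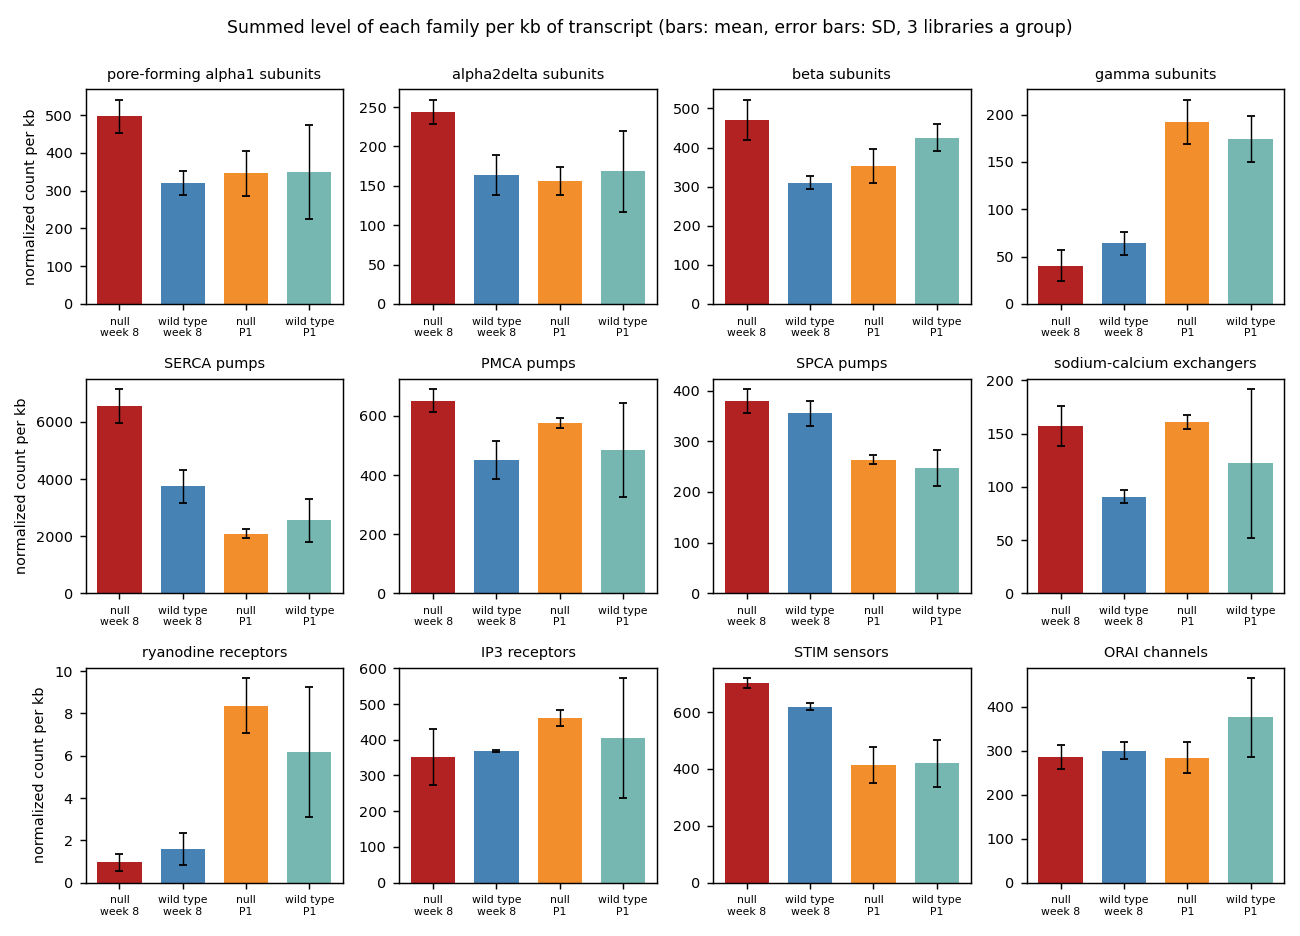
The summed level of each family (vertical axis, normalized counts per kb of transcript, from 0) is drawn for null and wild-type islets at week 8 and then at P1, with bars as means and error bars as SD (n = 3). SERCA pumps stand at 6566 in null and 3748 in wild-type islets at week 8, and the gamma subunits and ryanodine receptors are higher at P1 than at week 8 in both genotypes.

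Under the deposited scaling, SERCA pumps *Atp2a2* and *Atp2a3*, the L-type pores, *Cacnb2* and *Cacna2d1* were higher at week 8 than at P1 in null islets, and scaled to pan-endocrine genes all of these but *Atp2a3* and *Cacnb2* turned below 0. The 3 T-type pores, 4 of 5 gamma subunits, *Ryr2* and *Ryr3* were lower at week 8 in both genotypes, and below 0 on both scales. From P1 to week 8 null islets had 10 members higher and 16 lower, against 46.7% of all genes called (21.2% higher and 25.5% lower). Wild-type islets had 6 higher and 14 lower, against 32.6% (15.9% higher and 16.8% lower). These comparisons each used libraries that the genotype comparisons also used. Under the deposited scaling 12 members were called lower in both genotypes (*Cacna1g*, *Cacna1h*, *Cacna1i*, *Cacnb4*, *Cacng3*, *Cacng4*, *Cacng5*, *Cacng7*, *Itpr3*, *Orai1*, *Ryr2* and *Ryr3*). *Atp2b2* and *Stim1* were called higher in both, and under that scaling none was called in opposite directions. *Atp2a1*, *Atp2b3*, *Ryr1* and *Slc8a3* were lower in null islets and not called in wild-type islets, and *Cacna2d4* and *Cacnb3* were lower in wild-type islets and not called in null islets. With 1 of the 12 libraries left out in turn, 14 of the 20 wild-type calls and 20 of the 26 null calls held every time. In wild-type islets *Itpr3* held in 1 of these 12 fits and *Cacng3* in 5, and in null islets *Cacng3* held in 4.

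The T-type pore *Cacna1h* had 212, 207 and 224 normalized counts at week 8 and 452, 476 and 581 at P1 in null islets (-1.22 ± 0.21, limma adjusted p = 0.000261). In wild-type islets it had 166, 121 and 167 at week 8 and 481, 858 and 626 at P1 (-2.08 ± 0.21, adjusted p = 5.64e-06). Every week 8 library was below every P1 library. *Cacng7* changed by -3.26 ± 0.25 in null (adjusted p = 2.68e-07) and -1.66 ± 0.25 in wild-type islets (adjusted p = 0.000181), and *Ryr2* by -4.07 ± 0.44 in null (adjusted p = 5.23e-06) and -1.94 ± 0.44 in wild-type islets (adjusted p = 0.00371). The gamma subunits summed to 40.4 ± 16.2 per kb at week 8 and 193 ± 23.2 at P1 in null islets, and to 64.1 ± 12.02 at week 8 and 175 ± 24.5 at P1 in wild-type islets (SD, n = 3). The ryanodine receptors summed to 0.97 ± 0.402 at week 8 and 8.37 ± 1.31 at P1 in null islets, and to 1.59 ± 0.745 at week 8 and 6.18 ± 3.06 at P1 in wild-type islets.

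*Orai1*, the founding store-operated pore, fell too. It had 129.6, 95.1 and 132 normalized counts at week 8 and 260.5, 225 and 346 at P1 in null islets (-1.21 ± 0.24, adjusted p = 0.000949), and 144, 153 and 142 at week 8 and 522, 306 and 283 at P1 in wild-type islets (-1.28 ± 0.24, adjusted p = 0.00109), with no overlap between ages in either genotype. *Stim1* rose by 1.07 ± 0.21 in null (adjusted p = 0.000695) and 0.85 ± 0.21 in wild-type islets (adjusted p = 0.00577), but scaled to pan-endocrine genes was at -0.47 in null (adjusted p = 0.148) and 0.80 in wild-type islets (adjusted p = 0.064). It had 804, 730.2 and 1008 normalized counts at P1 in null and 553, 947 and 1100.5 in wild-type islets. *Atp2b2* rose by 2.45 ± 0.27 in null (adjusted p = 6.99e-06) and 1.47 ± 0.27 in wild-type islets (adjusted p = 0.0009), and had 95.1, 110.0 and 133 at P1 in null and 79.5, 144 and 172 in wild-type islets.

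Called higher with age in null islets and not in wild-type islets were *Atp2a3* (2.31 ± 0.25 in null and 0.63 ± 0.25 in wild-type islets), *Atp2a2* (1.43 ± 0.21 in null and 0.57 ± 0.21 in wild-type islets), *Cacnb2* (1.65 ± 0.25 in null and 0.32 ± 0.25 in wild-type islets), *Cacna1c* (1.26 ± 0.32 in null and 0.68 ± 0.32 in wild-type islets), *Cacna1d* (1.12 ± 0.28 in null and 0.24 ± 0.28 in wild-type islets), *Cacna2d1*, *Atp2c1* and *Orai3*. Scaled to pan-endocrine genes the last 3 were called lower with age in null islets, at -0.83 for *Cacna2d1*, -0.97 for *Atp2c1* and -0.91 for *Orai3*. Of these 8 members the interaction test was passed by *Atp2a3*, *Cacnb2* and *Orai3*, and not by *Atp2a2* (adjusted p = 0.0565), *Cacna1d* (adjusted p = 0.125), *Cacna1c* (adjusted p = 0.398), *Cacna2d1* (adjusted p = 0.109) or *Atp2c1* (adjusted p = 0.358). *Atp2c2*, *Itpr2*, *Orai2* and *Cacna2d3* were called higher with age in wild-type islets and not called in null islets: *Atp2c2* changed by -0.45 ± 0.53 in null and 2.51 ± 0.53 in wild-type islets, while *Itpr2* changed by -0.30 ± 0.35 in null and 1.39 ± 0.35 in wild-type islets. The interaction test was not passed by *Orai2* (0.07 ± 0.18 in null and 0.76 ± 0.18 in wild-type islets, interaction adjusted p = 0.0688) or *Cacna2d3* (1.25 ± 0.56 in null and 1.88 ± 0.56 in wild-type islets, interaction adjusted p = 0.619). Beside these changes, the acinar markers were higher at week 8 for 24 of 24 genes in wild-type islets. In null islets 5 of 24 were higher and 3 lower. Mesenchymal and smooth muscle markers were lower for 11 of 12 in null islets, and in wild-type islets 5 were lower and 2 higher. On the pan-endocrine scale *Atp2c2*, *Itpr2* and *Orai2* were called lower with age in null islets, at -1.95, -1.84 and -1.46. There *Atp2c2* (2.46) and *Itpr2* (1.33) were called higher in wild-type islets, and *Orai2* (0.71) was not called. *Cacna2d3* was called higher in wild-type islets (1.82) and not called in null islets (-0.17). Scaled to the pan-endocrine genes, null islets had 2 members higher and 36 lower with age, against 1.66% and 78.4% of all genes, with the median of all genes at -1.52. On that scale wild-type islets had 4 higher and 11 lower, against 8.15% and 11.2%.

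**Figure D5:**
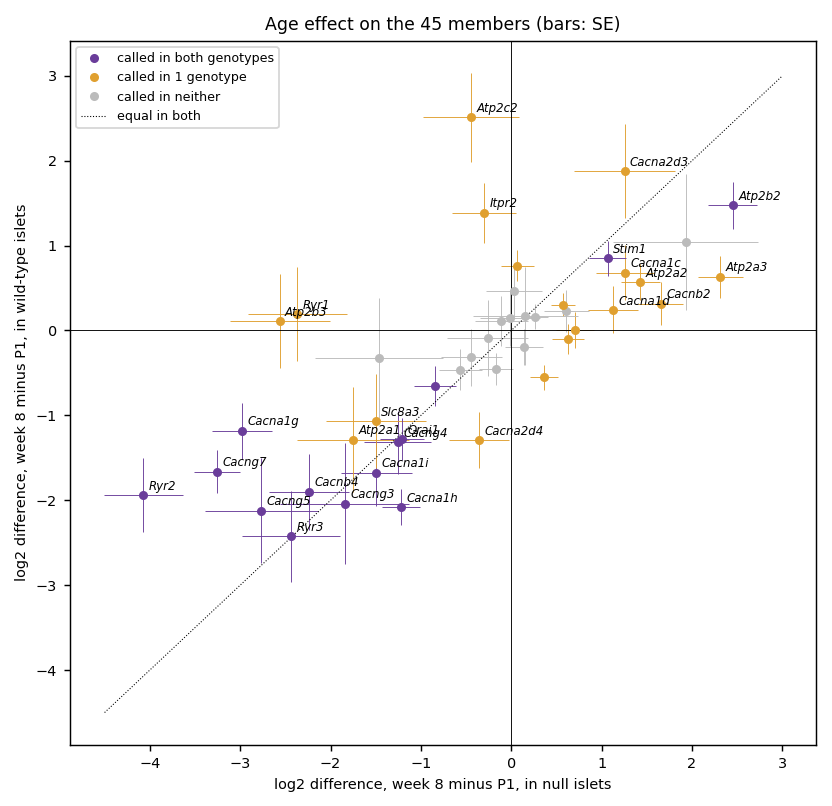
Each of the 45 members is placed by its log2 difference between week 8 and P1 in null islets (horizontal axis) and in wild-type islets (vertical axis), with SE bars, a dotted line where both are equal, and colours for calls in both, 1 or neither genotype. *Ryr2* (-4.07 in null and -1.94 in wild-type islets) lies with *Cacng7* at the lower left, *Atp2b2* and *Atp2a3* at the right, and *Atp2c2* (-0.45 in null and 2.51 in wild-type islets) at the top.

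Other calcium genes, in 5 lists chosen with earlier results known, moved in both directions at week 8: of 77 genes tested, 19 were higher and 14 lower in null islets under the deposited scaling, against 12.3% and 15.8% of all genes. Scaled to pan-endocrine genes limma called 0 higher and 25 lower, against 0.205% and 36.2% of all genes, and *Trpc1*, *Micu3*, *Saraf*, *Tmem38a*, *Nfatc2* and *Nfatc3* were among those that turned from above to below 0. Of 16 further entry channels 4 rose and 3 fell (median 0.25). *Trpm3*, a steroid- and heat-gated channel of beta cells, had 322 ± 27.6 normalized counts in null and 132 ± 5.21 in wild-type islets (SD, n = 3; 1.28 ± 0.16). *Trpc1* (0.70 ± 0.15) and *Trpc4* (0.91 ± 0.26), which the study drew from these samples, rose with it, and *Trpv6* (-2.84 ± 0.52) and *Trpv4* (-2.45 ± 0.52) fell. Of 9 genes of mitochondrial calcium, the gatekeeper *Micu3* (0.58 ± 0.15) rose, and the sodium-calcium exchanger *Slc8b1* (-1.18 ± 0.25) and the uniporter subunit *Smdt1* (-0.42 ± 0.11) fell (median -0.07).

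Among 21 store proteins and regulators 4 rose and 3 fell (median -0.03). *Homer2*, a scaffold of receptor signalling, had 169.8 ± 69.6 normalized counts in null and 993 ± 209.5 in wild-type islets (SD, n = 3; -2.59 ± 0.26), while *Fkbp1b*, which stabilises ryanodine receptors (1.05 ± 0.16), *Saraf*, which shuts off store-operated entry (0.49 ± 0.12), and the counter-ion channel *Tmem38a* (0.45 ± 0.12) rose. Among 23 sensors and effectors 7 rose and 4 fell (median 0.17), with the calcineurin-regulated factors *Nfatc2* (0.61 ± 0.12) and *Nfatc3* (0.56 ± 0.12) up and *Nfatc4* (-1.48 ± 0.27) and the sensor *Ncs1* (-1.16 ± 0.24) down. Of 8 channel-binding proteins the active-zone genes *Rims2* (0.90 ± 0.15) and *Rimbp2* (0.89 ± 0.19) rose and the channel regulators *Rem1* (-1.47 ± 0.42) and *Stac* (-1.06 ± 0.34) fell (median -0.03). At P1 limma called 0 of the 77, against 0.0658% of all genes (17 at an unadjusted p under 0.05, smallest adjusted p 0.0806). The share of all genes under that unadjusted p was not counted, so the 17 cannot be read as an excess.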

How the data were processed

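The authors deposited a signal for 18351 genes in 12 libraries, namely normalized counts (reads per gene divided by a library size factor), on an Ensembl 67 annotation per the file headers. The submitters' notes name DESeq 1.10.1, bedtools 2.11 and mm9. Aligner and counting options: not given in the sources used here. Deposited folds and p-values hold the authors' own comparisons and were not used. All values were whole multiples of 1 read within 0.001, so reads were recovered.

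Groups came from the sample labels. Genes with a mean of at least 1 were tested with limma 3.58.1 (trend) on log2(value + 1), so that folds of low genes are understated, with Benjamini-Hochberg adjustment over all genes. Genotypes were compared within each age, and the interaction and age effects in 1 fit of 12 libraries. Alternatives were other scalings (TMM, upper quartile, pan-endocrine genes), pseudocounts of 0.1 and 10, no filter or a mean of at least 10, DESeq2 1.42.0 and edgeR 4.0.16 on the reads, a threshold of 0.1 on the adjusted p, the acinar share as a covariate, 1 fit of all libraries, a block for replicate number, and omitting each library. An offset for transcript length was chosen after seeing the data. Tests were tested on simulated data. P-values measure the spread between these libraries.

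The rule for members used gene symbols alone, and the lists were written with earlier results of these data known. Members called in a genotype comparison or the interaction, and those the study draws, are named with their values, and from the other lists at most 4 genes with the smallest adjusted p at week 8, plus *Trpc1* and *Trpc4*. A gene that this rule names is not reported here. Members described in other groups, among them those named with age, were picked after their values were seen. Plots used Python 3.11.15 and matplotlib 3.10.9.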

Additional observations from a re-analysis of the deposited data

Results flagged for a closer look

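The effect of genotype differed between week 8 and P1 for 11 members by the limma interaction test over all 12 libraries. Of the members 8.89% were higher at week 8 relative to P1 and 15.6% lower, close to the 8.2% and 13.6% of all genes. Of the 11, 5 passed whichever of the 12 libraries was left out, whereas *Orai3* passed in 2 of these fits, *Ryr1* in 6 and *Itpr2* in 7. The effect at week 8 minus that at P1, on the log2 scale, was 1.68 for *Atp2a3* (adjusted p = 0.00413), 1.34 for *Cacnb2* (adjusted p = 0.0163), 0.91 for *Cacnb3* (adjusted p = 0.00775) and 0.73 for *Orai3* (adjusted p = 0.049). It was -1.59 for *Cacng7* (adjusted p = 0.00615), -1.69 for *Itpr2* (adjusted p = 0.0265), -1.80 for *Cacna1g* (adjusted p = 0.014), -2.13 for *Ryr2* (adjusted p = 0.0247), -2.56 for *Ryr1* (adjusted p = 0.0305), -2.67 for *Atp2b3* (adjusted p = 0.0253) and -2.95 for *Atp2c2* (adjusted p = 0.012). The acinar markers moved the opposite way at the ages, lower in null islets for 24 of 24 genes at week 8. At P1 their median log2 difference was 2.59, with 1 of 24 called higher. Mesenchymal and smooth muscle markers were lower at week 8 for 12 of 12 genes (median -1.87), and none was called at P1 (median 0.43). In the interaction 24 of 24 acinar and 11 of 12 mesenchymal and smooth muscle markers were lower, and 10 of 12 beta cell markers were higher. Whether the members follow these cell types was not tested.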

How the results depend on the processing

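The 16 members called at week 8 became 9 when libraries were scaled to the pan-endocrine genes. These 9 were all lower, where 36.2% of all genes were called lower. Of the 16, the 5 lower members were among these 9, and none of the 11 higher ones was. With the acinar share as a covariate 0 members were called, and with 1 library left out 9 to 16 (9 without wild-type replicate 3). At P1 the 0 became 23 under pan-endocrine scaling, all higher, where 40.7% of all genes were called higher. They became 2 under DESeq2, and 0 to 1 with 1 library left out (1 without wild-type replicate 1). The 11 of the interaction became 24 under pan-endocrine scaling, all lower, where 66.4% of all genes were called lower. With the acinar covariate they became 0 (0 members at an unadjusted p under 0.05). With 1 library left out they were 6 to 18. There were 6 without replicate 1 and 7 without replicate 2 of the P1 null islets. There were 7 without week 8 null replicate MUT218 and 18 without P1 wild-type replicate 1. Age calls were 22 to 29 in null and 16 to 23 in wild-type islets with 1 library left out. Over 27 named results and 567 alternatives, 466 kept their call, 93 lost it and 8 reversed. Of the 466, 27 came from the threshold of 0.1 on the same fit, where no call could be lost. With the offset for transcript length 26 of the 27 kept their call, and *Atp2c1* at week 8 lost it. Under pan-endocrine scaling the reversed values at week 8 were -0.093 for *Atp2b1*, -0.36 for *Atp2c1*, -0.075 for *Cacna2d1* and -0.10 for *Cacnb3*, and for the interaction -0.14 for *Cacnb2*, -0.57 for *Cacnb3* and -0.75 for *Orai3*. With the acinar covariate the interaction of *Atp2c2* reversed to 1.65. The acinar share did not overlap between genotypes at either age, being lower in null islets at week 8 and higher at P1. The covariate fits therefore tell genotype and acinar share apart poorly, for the interaction as well. The cause of these changes was not tested.

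Replicate numbers did not pair the P1 samples, since deviations of same-numbered libraries correlated at 0.04, -0.02 and -0.02, nor the wild-type libraries across ages (-0.04, -0.05 and -0.02). With the replicate number as a block 0 members were called at P1, and 14 with age in the wild-type libraries alone, against 16 in those libraries without the block. Libraries of a group differed by more than sampling noise and none was a repeat. Members under about 10 normalized counts, the ryanodine receptors and *Cacng5* at week 8 among them, rest on a few reads a library. What size of difference could be detected at such levels was not tested, so a member not called there may still differ.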
